A study of Homo sapiens with 12 samples.

Results

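The genes described here are 10 inflammatory target genes of the transcription factor NF-kB, out of 34687 gene names on the array. They comprise 6 chemokines (IL8, CXCL1, CXCL2, CXCL3, CXCL5 and CCL20), 2 feedback inhibitors of the pathway (NFKBIA and TNFAIP3) and 2 NF-kB subunits that are themselves targets (RELB and NFKB2). They were taken from a list of names, with no threshold on a measured value but with earlier results of these data known, and each matched 1 row. The study asked how inhibitors of the co-activators CBP and p300 alter the transcriptomes of cancer cells. It used HCT116, an established human colorectal cancer line, and PANC1, an established human line from a pancreatic ductal adenocarcinoma. Cells of each line received DMSO at 0.05%, which is the solvent and served as the control, ICG-001 at 10 uM or C646 at 10 uM, and RNA was taken after 12 or 96 h. ICG-001 binds CBP and blocks its contact with β-catenin, while C646 competes with acetyl-CoA in the catalytic pocket of p300 and CBP. Each of the 12 combinations had 1 column of signal intensity, in which the authors had averaged 2 arrays (3 in PANC1 cells given ICG-001 for 12 h). No spread between replicates can be computed from such means, so no test was run, and every difference given is the size of a difference between 2 columns.

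NF-kB is a family of dimeric transcription factors that inhibitor proteins hold in the cytoplasm until a cytokine, microbial product or other stress leads to destruction of the inhibitor. In the canonical branch RELA and NFKB1 enter the nucleus and switch on chemokines that attract neutrophils and lymphocytes, together with genes that shut the response down again. In the non-canonical branch the NFKB2 precursor is processed and pairs with RELB. CBP and p300 are co-activators of RELA, and tumour cells of epithelial origin often secrete IL8 and its relatives.

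The promoters of these genes are shown first, because NF-kB dimers bind a DNA element. The genes were listed as NF-kB targets beforehand and no binding was measured, so the matches below only describe the sequences. Sequences are from RefSeq on GRCh38.p14, taken from the 250 bases upstream of each start site, and 9 of the 10 genes had an entry. The kB motif, a degenerate element of 10 letters bound by NF-kB dimers, was searched on both strands, and so was the 9-letter word GGAATTTCC, which was added after the promoters had been read and overlaps the kB motif. The kB motif was present in a promoter of 8 of the 9 genes and in 9.96% of all 35116 promoters, and GGAATTTCC in 6 of the 9 and in 0.413% of all. Because NFKB2 has 3 start sites, the 9 genes had 11 promoters, of which 9 held the kB motif and 6 held GGAATTTCC. IL8, named CXCL8 in RefSeq, held only the shorter word. Capitals mark the matches, and each stretch is written 5′ to 3′ on the strand of its gene. The 5 CXC chemokine genes lie in 1 cluster on chromosome 4, and the short stretches around their matches are the following.
IL8 (chr4:73740458-73740506, plus strand): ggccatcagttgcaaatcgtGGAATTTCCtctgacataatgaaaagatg
CXCL1 (chr4:73869294-73869344, plus strand): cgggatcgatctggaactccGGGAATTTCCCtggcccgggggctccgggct
CXCL2 (chr4:74099243-74099293, minus strand): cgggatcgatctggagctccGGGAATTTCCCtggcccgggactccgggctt
CXCL3 (chr4:74038738-74038788, minus strand): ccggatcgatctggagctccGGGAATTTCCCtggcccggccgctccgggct
CXCL5 (chr4:73998738-73998788, minus strand): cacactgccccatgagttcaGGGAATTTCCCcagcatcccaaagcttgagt

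CXCL1, CXCL2 and CXCL3 had the same word of 11 letters within nearly the same flanks. Aligned over 250 bases, CXCL1 and CXCL3 shared 84.0% of bases, CXCL2 and CXCL3 75.6%, and CXCL1 and CXCL2 73.6%, whereas IL8 shared 39.6 to 44.4% with each of the other four. The genes are close paralogs, and whether the array probe of CXCL1, CXCL2 or CXCL3 also binds RNA of its relatives was not tested. The genes outside the cluster carried other forms of the element, which for TNFAIP3 and NFKB2 are given without flanks of that length, and for NFKB2 only the first of several matches is shown.
CCL20 (chr2:227813743-227813792, plus strand): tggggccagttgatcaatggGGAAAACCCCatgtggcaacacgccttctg
NFKBIA (chr14:35404801-35404850, minus strand): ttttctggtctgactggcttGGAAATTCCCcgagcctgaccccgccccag
TNFAIP3 (chr6:137867188-137867217, plus strand): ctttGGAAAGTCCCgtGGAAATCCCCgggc
NFKB2 (chr10:102394462-102394490, plus strand): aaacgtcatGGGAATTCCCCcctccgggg

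Signals were read against a detection limit set in each column from the spread of its background values, which came to 151 to 152 for the HCT116 columns and 144 to 145 for those of PANC1. HCT116 columns had 13548 to 13793 gene names above it, PANC1 columns 13715 to 13904. Within a line, genes that no column held above the limit had log2 ratios with an SD of 0.0736 to 0.0782 (HCT116) or 0.0657 to 0.0791 (PANC1), a measure of noise at background level and not of replicate error. The labelled cell types were checked against markers. In HCT116, 5 of 6 epithelial markers were above the limit in every column, but of 8 colon markers only CDX2 was, and CDX1, VIL1, CDH17, LGR5 and ASCL2 never were. PANC1 had all 6 epithelial and 4 of 7 pancreatic duct markers above the limit throughout, and also VIM and CDH2, which are mesenchymal. Of 8 leukocyte markers, PTPRC, CD3E and CD79A were under the limit in all 12 columns, whereas HLA-DRA and CD68 were above it in all 12 (CD68 at up to 675 in HCT116 and 3415 in PANC1), FCGR3A in 11 and CD14 in 5 of 6 PANC1 columns. Of 8 stromal and endothelial markers, DCN, LUM, PECAM1, CDH5 and VWF were under the limit throughout, COL1A1 and ACTA2 above it throughout (ACTA2 at up to 1110 in HCT116) and COL3A1 above it in 4 PANC1 columns. The summed signal of the leukocyte list ran from 1330 to 1785 in HCT116 and 3154 to 4443 in PANC1, that of the stromal list from 1235 to 2089 and 1133 to 1408, and their part in the results was not tested.

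Only part of the group was expressed at a level the arrays could measure. In HCT116, 4 members (IL8, NFKBIA, RELB and NFKB2) were above the limit in all 6 columns, 4 in some columns and 2 in none. In PANC1, 6 members (the same 4 with CXCL1 and TNFAIP3) were above it in all 6 columns, 2 in some and 2 in none. CXCL2 and CXCL5, both neutrophil chemokines, were never above the limit, with signals of 128 to 151 and 127 to 130.2 in HCT116 and 118 to 137 and 119.5 to 128 in PANC1. The cell lines had been normalized apart, so levels were compared between them only as the percentile of a gene among all rows of its column. NFKBIA was high in both, at percentiles 92.9 to 94.7 in HCT116 and 94.5 to 97.8 in PANC1. CXCL1 had 45.2 to 66.0 in HCT116, where 3 of 6 columns were above the limit, and 70.5 to 78.2 in PANC1. TNFAIP3 had 42.2 to 64.8 in HCT116, where 2 of 6 columns were above the limit, and 65.6 to 73.1 in PANC1. IL8 had 64.8 to 78.6 and 69.1 to 76.8. Percentiles of columns under the limit rank background values. How many of all genes lie as far apart between the lines was not counted.

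**Figure D1:**
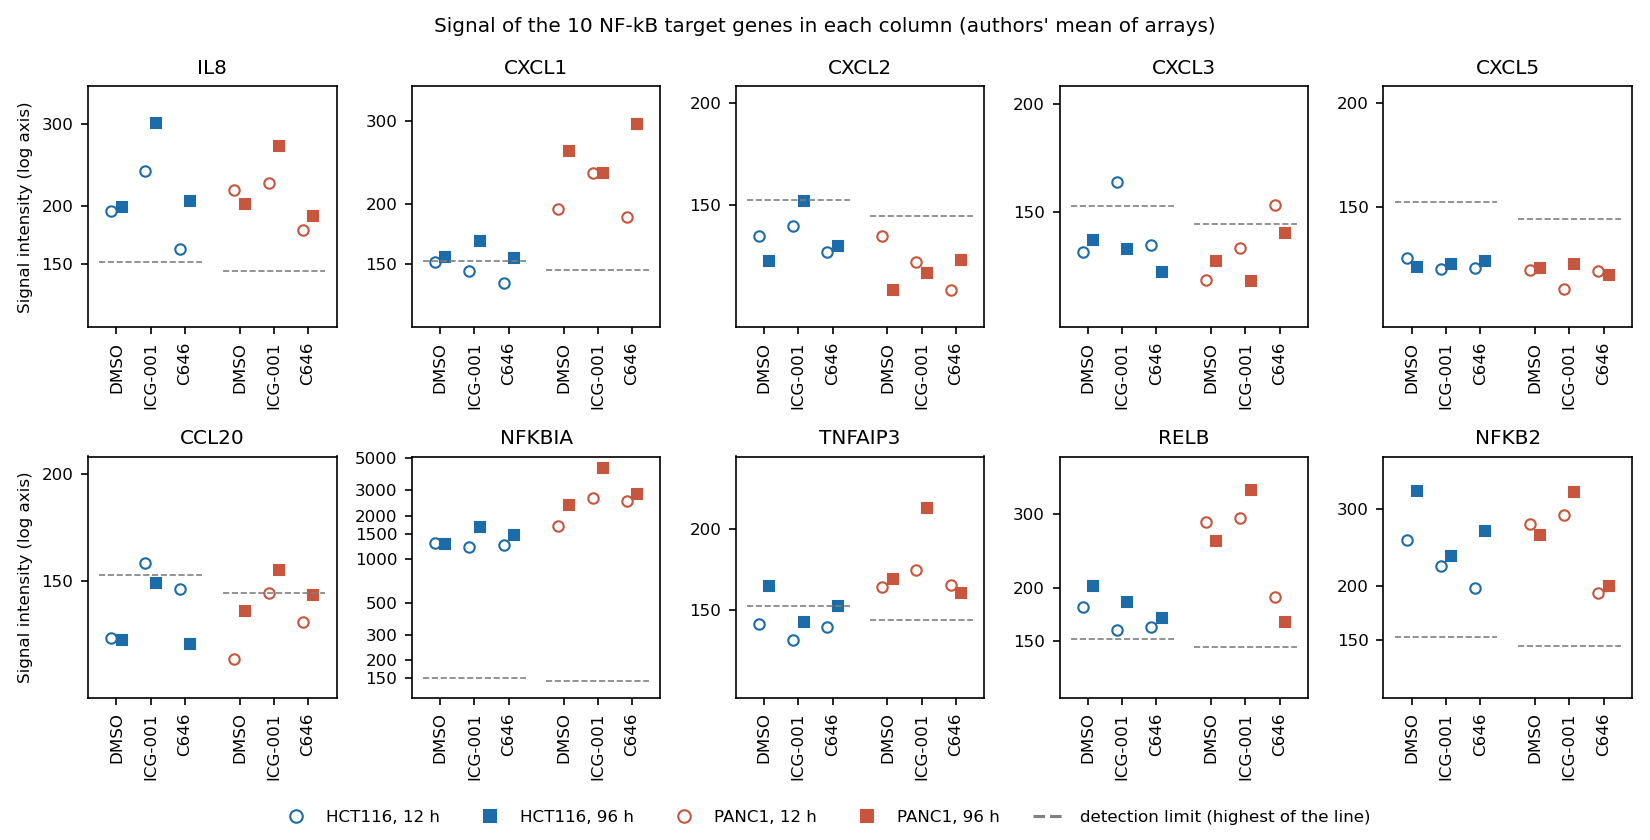
Signal intensity of each of the 10 genes (vertical axes, logarithmic, with a separate range for each gene) in the 12 columns, with treatment along the horizontal axis, cell line by colour and time by symbol; the dashed lines are the highest detection limit of each line, and a point is the authors' mean of arrays with no error bar. NFKBIA in PANC1 rises from 1694 to 4298, RELB and NFKB2 in PANC1 sit lowest with C646, and CXCL2 and CXCL5 lie under the limit in all columns.

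Each drug column was set against DMSO of its own line and time, and a difference was counted when it reached 1.5-fold in either direction. The 2 DMSO columns of a line were also compared with each other, as a yardstick of how much undrugged columns differ. Where paragraphs on single genes give the order of columns, how many of all genes share that order was not counted. Background was left in the deposited signals, so the ratios of dim genes understate their changes, and values after normexp background correction are given where this matters.

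Among the chemokines, IL8 was the only one above the limit in every column, and its highest signal was with ICG-001 at 96 h in both lines. IL8 encodes the main neutrophil attractant made by epithelial cells. In HCT116 its signal was 195 and 199 with DMSO at 12 and 96 h, 237 and 301 under ICG-001 and 162 and 205 under C646. In PANC1 it was 216 and 202 with DMSO, 224 and 268 under ICG-001 and 177 and 190.3 under C646. Both ICG-001 columns therefore lay above both DMSO columns in each line, and the lowest column in each line was C646 at 12 h. In PANC1 the 12 h ICG-001 column exceeded its DMSO column by only 0.73 times the SD of ratios at background level. In HCT116 the log2 ratio of IL8 to DMSO was 0.29 and then 0.60 under ICG-001, the latter a 1.51-fold difference, and -0.26 and then 0.04 under C646. The PANC1 ratios were 0.05 and 0.41 under ICG-001 and -0.29 and -0.09 under C646. The DMSO columns themselves differed by 0.03 in HCT116 and -0.10 in PANC1 (96 h over 12 h, log2). After background correction the IL8 ratio of ICG-001 to DMSO at 96 h was 1.00 in HCT116 and 0.69 in PANC1 on the log2 scale.

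CXCL1, like IL8 a ligand of CXCR2, was measurable throughout in PANC1, where its largest difference was between time points of C646. Its signal there was 196 and 259.5 with DMSO at 12 and 96 h, 233 and 233 under ICG-001 and 188 and 296 under C646. The highest and the lowest PANC1 columns were both C646, at 96 and at 12 h, with the DMSO columns in between. Against DMSO the log2 ratios of CXCL1 were 0.25 and -0.16 for ICG-001 and -0.06 and 0.19 for C646, so each drug changed sign between the time points, and each ratio was smaller than the difference of 0.41 between the DMSO columns. In HCT116 the CXCL1 signal ran from 136 to 167 and crossed the limit in the 3 columns taken at 96 h only, where the log2 ratio to DMSO was 0.11 for ICG-001 and -0.01 for C646.

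CXCL3 and CCL20 stood above the limit in 3 or fewer columns. CXCL3, another CXCR2 ligand, reached 162 with ICG-001 at 12 h in HCT116, where the DMSO column was 135, and 153 with C646 at 12 h in PANC1, where the DMSO column was 125. Since the DMSO columns were under the limit, these are differences of at least 1.07-fold and at least 1.06-fold. CCL20, which attracts CCR6-bearing lymphocytes and dendritic cells, reached 157 with ICG-001 at 12 h in HCT116, against 128 with DMSO. In PANC1 it reached 145 and 154 with ICG-001 at 12 and 96 h, against 121 and 138 with DMSO. All 3 CCL20 columns above the limit were ICG-001 columns, and the differences from DMSO were at least 1.04-fold in HCT116 and at least 1.00-fold and 1.06-fold in PANC1. Against DMSO, CXCL3 and CCL20 thus gave bounds near 1, from which neither a change nor its absence can be read.

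NFKBIA, which encodes the inhibitor IκBα and is induced by NF-kB as its quickest feedback, had the largest log2 ratio to DMSO of any member. In PANC1 its signal was 1694 and 2363 with DMSO at 12 and 96 h, 2664 and 4298 under ICG-001 and 2536 and 2827 under C646. All 4 drug columns were above both DMSO columns, and the DMSO column at 96 h was above that at 12 h. ICG-001 gave log2 ratios of 0.65 at 12 h and 0.86 at 96 h, which are 1.57-fold and 1.82-fold, at percentiles 98.0 and 98.6 of all genes compared. C646 gave 0.58 at 12 h, which lies just under the threshold, and 0.26 at 96 h. The DMSO columns differed by 0.48, so with the mean of both DMSO columns as control the 12 h ratio of ICG-001 was 0.41, and with the 96 h DMSO column as control it was 0.17. With the 12 h DMSO column as control, the ratio of C646 at 96 h became 0.74.

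In HCT116, NFKBIA stayed within a narrower range. Its signal was 1292 and 1277 with DMSO, 1214 and 1666 under ICG-001 and 1268 and 1473 under C646. The 12 h drug columns lay below both DMSO columns and the 96 h drug columns above them. The log2 ratios were -0.09 and 0.38 for ICG-001 and -0.03 and 0.21 for C646, and the DMSO columns differed by -0.02.

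TNFAIP3 encodes A20, a ubiquitin-editing enzyme that dampens signaling upstream of the IκB kinases. In PANC1 its signal was 163 and 168 with DMSO, 173 and 216 under ICG-001 and 164 and 159.7 under C646. ICG-001 at 96 h stood apart from the other 5 columns, with a log2 ratio of 0.36, or 0.71 after background correction. The remaining TNFAIP3 ratios in PANC1 were 0.09 for ICG-001 at 12 h and 0.01 and -0.07 for C646. In HCT116 the signal was 135 to 163 and passed the limit only in the 96 h columns of DMSO and C646.

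RELB and NFKB2, the subunits of the non-canonical branch, moved apart under the drugs in PANC1, being higher under ICG-001 at 96 h and lower under C646 at both times. RELB signal in PANC1 was 288 and 259 with DMSO at 12 and 96 h, 294 and 343 under ICG-001 and 191 and 167 under C646. NFKB2 signal in PANC1 was 278 and 261 with DMSO, 291 and 329.7 under ICG-001 and 192 and 199 under C646. For both genes the 2 C646 columns were the lowest, the 2 ICG-001 columns the highest, and the DMSO columns lay between. At 12 h, however, ICG-001 stood only 0.03 (RELB) and 0.06 (NFKB2) above DMSO on the log2 scale. That is 0.42 and 0.92 times the SD of ratios at background level.

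With C646, RELB fell by 0.59 at 12 h and fell by 0.64 at 96 h on the log2 scale in PANC1, or 1.51-fold and 1.55-fold, at percentiles 3.03 and 1.04 of all genes compared. NFKB2 was lower by 1.45-fold and 1.31-fold, at percentiles 4.18 and 5.46. The 12 h ratio of RELB lay at the threshold. It no longer reached 1.5-fold with the mean of both DMSO columns as control (-0.52), with the 96 h DMSO column as control (-0.44), after centring on the median ratio (-0.58) or after quantile normalization over all 12 columns (-0.57). Those last 2 scalings brought NFKBIA with C646 at 12 h past 1.5-fold upward, at 0.60 and 0.59. With ICG-001 the log2 ratios were 0.03 and 0.40 for RELB and 0.06 and 0.34 for NFKB2. Background correction made the C646 ratios -0.98 and -1.14 for RELB and -0.88 and -0.65 for NFKB2.

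In HCT116 both subunit genes had their highest signal in the DMSO column at 96 h and all drug columns were below the DMSO column of their time. RELB signal was 181 and 203 with DMSO, 159 and 186 under ICG-001 and 162 and 169.9 under C646. NFKB2 signal was 255 and 331 with DMSO, 222 and 234 under ICG-001 and 197 and 268 under C646. None of these 8 ratios reached 1.5-fold, and the most negative were those of NFKB2, -0.50 under ICG-001 at 96 h and -0.37 under C646 at 12 h. The DMSO columns differed by 0.17 for RELB and 0.38 for NFKB2, and with the DMSO column of the other time as control the NFKB2 ratio was -0.13 for ICG-001 at 96 h and -0.75 for C646 at 12 h. After background correction these 2 NFKB2 ratios, against DMSO of their own time, were -0.77 and -0.65, which is past 1.5-fold. With that correction 12.4% and 5.65% of all genes compared were also at least 1.5-fold lower.

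**Figure D2:**
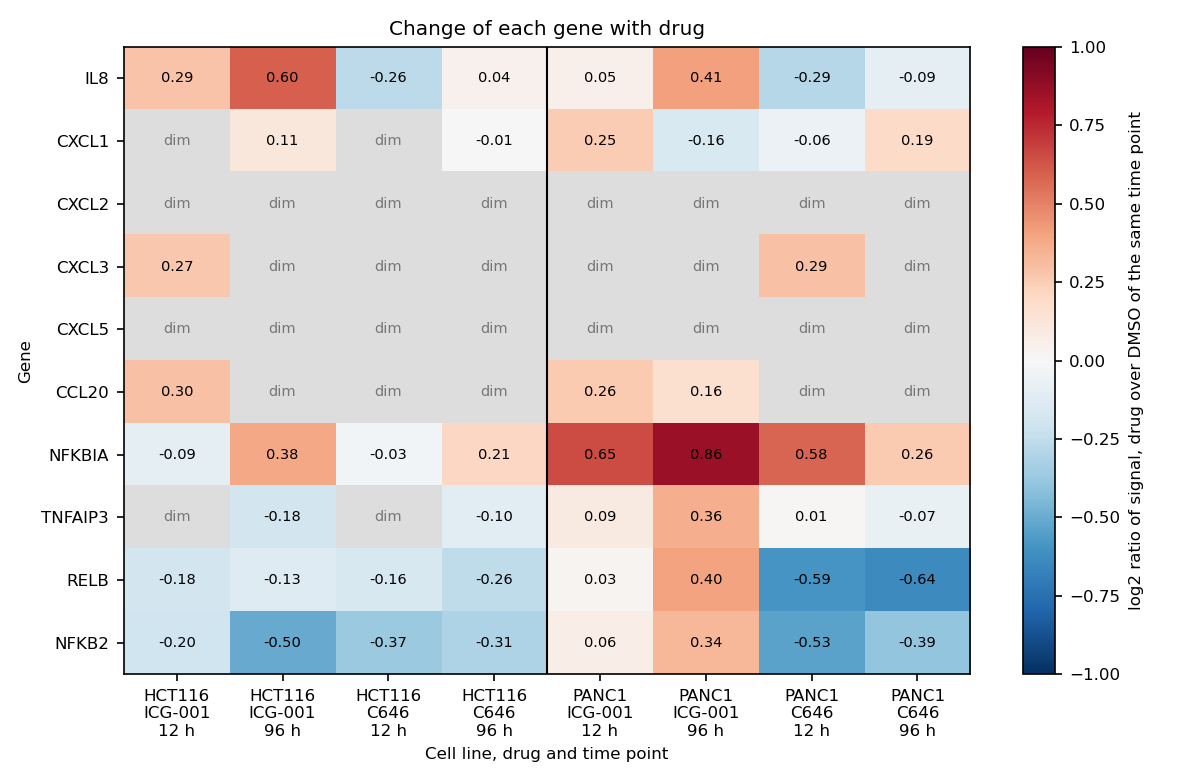
Log2 ratio of signal, drug over DMSO of the same time point, for each gene (rows) in the 8 drug columns (horizontal axis), with red above 0 and blue below 0. Dim marks genes under the limit in both columns. For genes under the limit in 1 column only a bound can be given, so their numbers are not measured differences. NFKBIA with ICG-001 in PANC1 is highest at 0.86, and RELB with C646 in PANC1 is lowest at -0.64.

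Counted over the group, few members reached 1.5-fold against DMSO. In HCT116, ICG-001 had 0 of 6 members past the threshold at 12 h, where 5.63% of all genes compared were higher and 4.85% lower. At 96 h it had 1 of 6 higher (IL8) and 0 lower, where 5.97% of all genes were higher and 5.95% lower. C646 in HCT116 had 0 of 4 at 12 h (3.04% of all genes higher and 1.79% lower) and 0 of 6 at 96 h (2.20% and 1.42%).

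In PANC1, ICG-001 had 1 of 7 members higher (NFKBIA) and 0 lower at 12 h, beside 2.58% of all genes higher and 0.399% lower. It again had 1 of 7 higher (NFKBIA) and 0 lower at 96 h, beside 4.54% and 4.20%. C646 in PANC1 had 1 of 7 lower (RELB) and 0 higher at 12 h, beside 3.19% of all genes lower and 4.73% higher, and 1 of 6 lower (RELB) at 96 h, beside 1.39% lower and 3.29% higher. A member that passed the limit in only the brighter column had to differ somewhat. This applied to CXCL3 and CCL20 and, in HCT116 with ICG-001 at 96 h, to TNFAIP3.

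The filter admits some members only through the column where they are high, so medians were taken over those members that every column of their line held above the limit. With ICG-001 in PANC1 these 6 members had a median log2 ratio of 0.08 at 12 h, with 6 of 6 above 0, and 0.38 at 96 h, with 5 of 6 above 0. Of the 12097 genes chosen in the same way, 48.6% and 47.2% were above 0, with medians of -0.01 and -0.02. The ratios of a time point share 1 DMSO column, so the members do not count as replicates. At 12 h IL8, RELB and NFKB2 were above 0 by 0.73, 0.42 and 0.92 times the SD of ratios at background level. Against the 96 h DMSO column the 12 h ratio of CXCL1 became -0.16. At 96 h NFKBIA stood at percentile 98.6 of all genes compared, IL8 at 90.7, RELB at 90.6, TNFAIP3 at 88.9 and NFKB2 at 87.7, while CXCL1 was below 0 and at 28.5. With C646 in PANC1 the medians were -0.17 and -0.08, with 2 of 6 above 0 at each time, beside 47.1% and 44.3% of genes. In HCT116 the 4 members had medians of -0.14 and 0.13 with ICG-001, with 1 and 2 of 4 above 0, and -0.21 and -0.11 with C646, with 0 and 2 of 4 above 0.

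The drugs were also compared with each other at the same dose and time, which uses no DMSO column. In PANC1, ICG-001 over C646 gave RELB at 1.54-fold and NFKB2 at 1.51-fold at 12 h, 2 of 8 members, where 1.89% of all genes were higher with ICG-001 and 1.12% lower. At 96 h RELB was 2.06-fold higher with ICG-001, NFKB2 1.66-fold and NFKBIA 1.52-fold, 3 of 7 members, where 3.98% of all genes were higher and 4.16% lower. RELB stood at percentiles 98.5 and 99.3 and NFKB2 at 98.2 and 98.0. Quantile normalization over all 12 columns brought the 12 h log2 ratios of RELB and NFKB2 to 0.57 and 0.55, just under the threshold.

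IL8 was higher with ICG-001 than with C646 in all 4 of these comparisons. Its log2 ratios in HCT116 were 0.55 and 0.55, and those in PANC1 0.34 and 0.50, at percentiles of 92.7 to 95.7, and none reached 1.5-fold as deposited. After background correction all 4 did, at log2 ratios of 1.08 and 0.91 in HCT116, then 0.60 and 0.85 for PANC1. So did 9.24%, 8.58%, 4.65% and 8.70% of all genes compared, in that order. In HCT116 no member reached 1.5-fold at 12 h (0 of 6, beside 4.05% of all genes higher and 3.31% lower) or at 96 h (0 of 6, beside 3.79% and 3.84%). CXCL1 in PANC1 went from 0.31 at 12 h to -0.35 at 96 h. Over the 6 PANC1 members above the limit in every column, the median was 0.32 at 12 h and 0.55 at 96 h, beside medians over the 12097 genes within 0.01 of 0. Over the 4 HCT116 members it was 0.08 and 0.15.

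**Figure D3:**
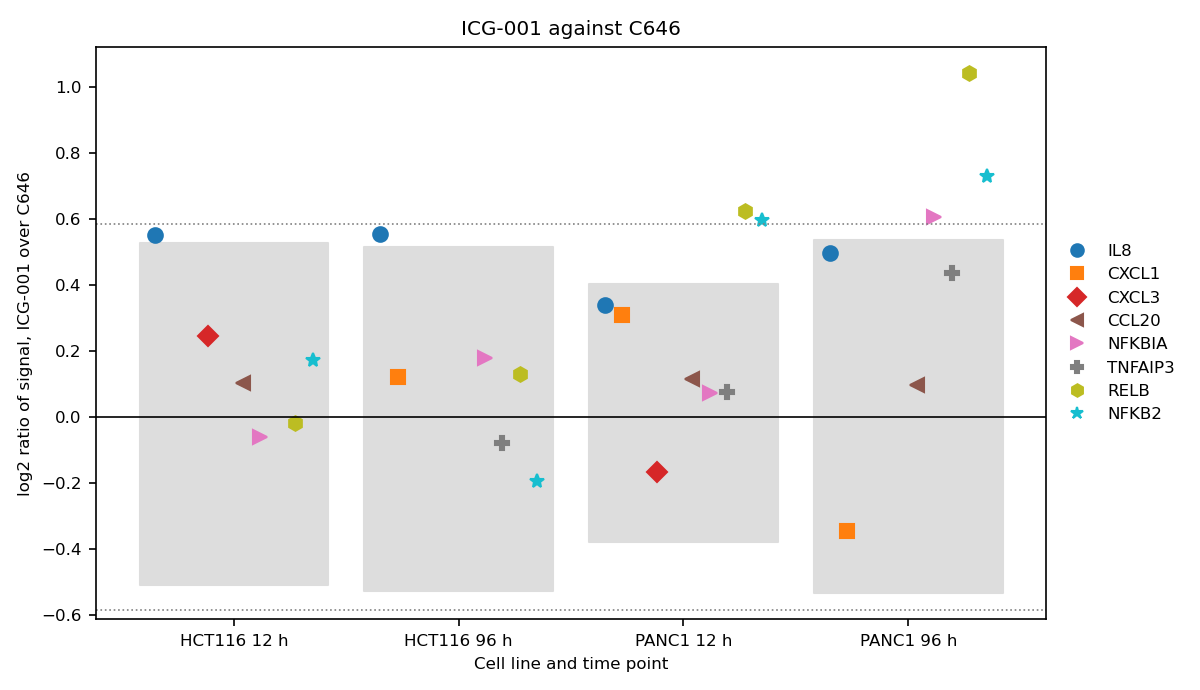
Log2 ratio of signal, ICG-001 over C646 (vertical axis), for each measured member (symbols) in the 2 lines and time points; grey boxes span the 5th to 95th percentile of all genes compared, and dotted lines mark 1.5-fold. RELB and NFKB2 lie above the box at both time points in PANC1, reaching 1.04 and 0.73 at 96 h, and inside it in HCT116, while IL8 lies just above it in HCT116.

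Comparing 96 h with 12 h over the members above the limit in all 6 columns, 3 of 4 were above 0 with DMSO in HCT116 and 4 of 4 with each drug, beside 51.2%, 47.4% and 49.9% of genes for DMSO and the drugs in that order. The PANC1 numbers above 0 were 3 of 6 with DMSO, 5 of 6 with ICG-001 and 4 of 6 with C646, beside 52.2%, 46.4% and 49.6%. With ICG-001 in PANC1, NFKBIA was 1.61-fold higher at 96 h, 1 of 7 members, where 2.67% of all genes were higher and 2.10% lower. Under C646 in that line, CXCL1 was 1.57-fold higher, 1 of 7, where 0.480% were higher and 0.0959% lower, and it stood at percentile 99.7. No member reached 1.5-fold with DMSO in either line or with a drug in HCT116, where 1.80%, 4.78% and 4.44% of all genes were higher with DMSO, ICG-001 and C646 and 1.81%, 3.25% and 3.83% lower. With DMSO in PANC1, 1.13% of all genes were higher and 0.382% lower. Cells for the 12 h columns were treated at a higher density than those kept to 96 h, which were also passaged, so time and density cannot be told apart.

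How the members tracked one another differed between the lines as far as 6 columns can describe it, with points that share a cell line and its normalization. In PANC1, RELB and NFKB2 had Pearson r = 0.98 over the 6 columns, IL8 had 0.93 with NFKB2, 0.88 with RELB and 0.87 with TNFAIP3, and NFKBIA had 0.17 with RELB. CXCL1 tracked none of them closely there, with r from -0.26 (RELB) to 0.35 (NFKBIA). The spread of r over all pairs of genes was not computed. In HCT116, RELB and NFKB2 had r = 0.81, IL8 had 0.03 with NFKB2, and IL8 with NFKBIA had 0.66. Among 2415 genes that varied at least 1.5-fold in each line, those whose pattern was most like IL8 were ETV5, an ETS family transcription factor, at a mean r of 0.96 over both lines, C5orf32 at 0.96, LYRM1 at 0.95, ITGA3, an integrin subunit, at 0.94, and LOC729009 at 0.94. The 99th percentile of that measure was 0.91. Most like NFKBIA were ARL2, WDSUB1, RABL2B, PLEKHF1 and SH3PXD2A, at a mean r of 0.93 to 0.94 with a 99th percentile of 0.89.

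Other genes of the pathway, listed by role, were 109 and all were in the table. Past 1.5-fold, those with ICG-001 were higher with 1 exception. In HCT116, 11 of 67 measured genes were at least 1.5-fold higher and 0 lower at 12 h, and 11 of 73 higher and 0 lower at 96 h, with medians of 0.10 and 0.11 on the log2 scale and 25 and 31 genes below 0. In PANC1, 10 of 78 were higher and 0 lower at 12 h, and 20 of 81 higher and 1 lower at 96 h, with medians of 0.05 and 0.18 and 31 and 25 genes below 0. The share higher at 12 and 96 h was 16.4% and 15.1% in HCT116, beside 5.63% and 5.97% of all genes. In PANC1 it was 12.8% and 24.7%, beside 2.58% and 4.54%. Of all genes, 4.85% and 5.95% were lower in HCT116 and 0.399% and 4.20% in PANC1. With C646 the counts were more even. They were 6 of 67 higher and 4 lower and then 2 of 70 higher and 1 lower in HCT116, and 6 of 79 higher and 7 lower and then 5 of 80 higher and 4 lower in PANC1. At 12 h in HCT116 these were 8.96% higher and 5.97% lower, beside 3.04% and 1.79% of all genes. At 96 h they were 2.86% and 1.43%, beside 2.20% and 1.42%. At 12 h in PANC1 they were 7.59% and 8.86%, beside 4.73% and 3.19%. At 96 h in PANC1 they were 6.25% and 5%, beside 3.29% and 1.39%.

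By role, with ICG-001 at 96 h in PANC1, the lists held few genes each and were not tested against each other. Of other target genes, 12 of 33 were higher and 1 lower, with a median log2 ratio of 0.30. Of all genes, 4.54% were higher and 4.20% lower in that comparison. Of other inhibitors 3 of 10 were higher, of kinases and adaptors 3 of 23, of ligands 1 of 4 and of other subunits 1 of 3, while 0 of 7 receptors and 0 of 1 chemokine receptors were, and none of these lists had a lower gene. The largest rises among genes past 1.5-fold at both times were CX3CL1, a membrane-bound chemokine, with log2 ratios of 0.95 and 1.70, IRF1, an interferon response factor, with 1.77 and 1.69, and TNIP1, a partner of A20, with 0.70 and 1.32. With DMSO at 12 and 96 h, CX3CL1 signal was 393 and 614, IRF1 217 and 422 and TNIP1 417 and 469. The DMSO columns of these genes thus differed too, and the 12 h ratios depend on which of them is the control. In HCT116 the largest rises with ICG-001 included PLAU, the urokinase plasminogen activator, with 2.26 and 2.63, and TNFRSF12A, the TWEAK receptor, with 1.77 and 1.19. Their DMSO signals were 624 and 700 for PLAU and 1010 and 857 for TNFRSF12A. In each line 7 of the pathway genes were past 1.5-fold higher under ICG-001 at both times, and none was lower at both. How many of all genes were past 1.5-fold in the same direction at both times was not counted.

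With C646, a fall that ran beside those of RELB and NFKB2 in PANC1 was that of RELA, the main activating subunit. RELA signal was 510 with DMSO and 247 with C646 at 12 h, and 371 and 226 at 96 h, which are log2 ratios of -1.05 and -0.72. The other 2 genes lower at both times were BCL2L1, an inhibitor of apoptosis, with -1.01 and -0.75, and NFKBIB, an IκB protein, with -0.67 and -0.59. Their DMSO signals at 12 and 96 h were 2800 and 2258 for BCL2L1 and 1023 and 782 for NFKBIB. For RELA and these 2 genes the DMSO signal was thus lower at 96 h as well. NFKB1, in contrast, had 0.21 and 0.06, and REL -0.14 and -0.15. The largest rises with C646 in PANC1 were CCL5, a T-cell chemokine, with 0.62 and 1.10, TNFSF15 with 0.90 and 1.06, and IL18, an IL-1 family cytokine, with 0.92 and 0.87. In HCT116 with C646, IL18 had 0.92 and 0.66, IRF1 had 0.65 and 0.73, and RHOB, a small GTPase, was lower, with -0.61 and -0.77.

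**Figure D4:**
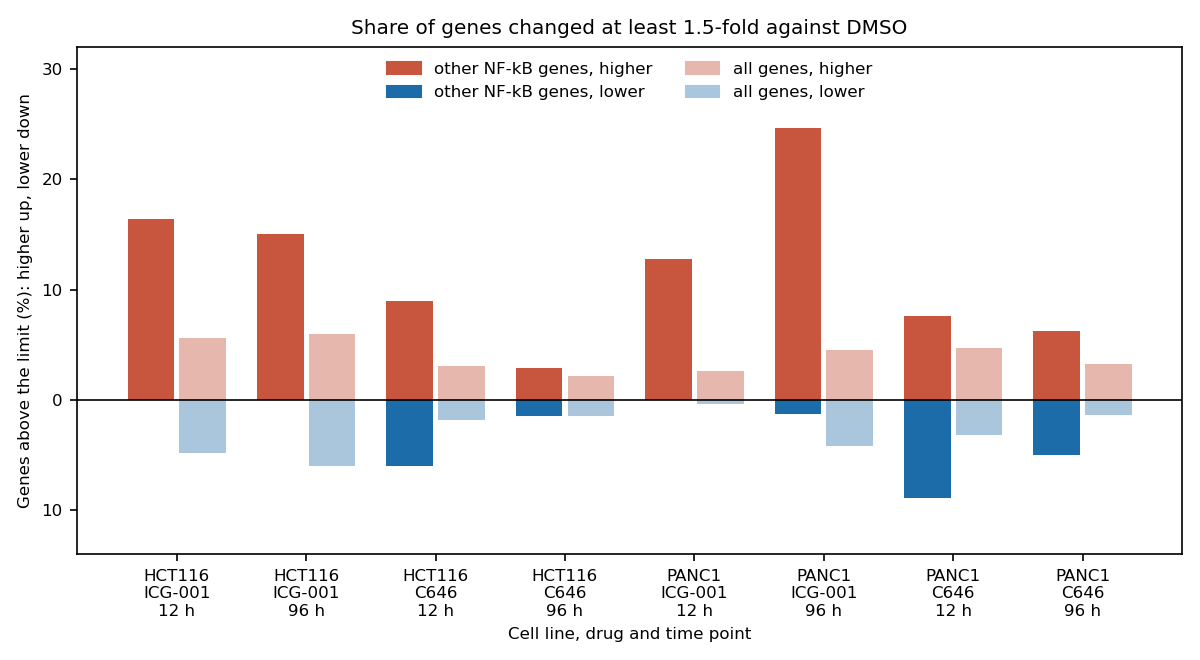
Share of genes (vertical axis, %) at least 1.5-fold higher (bars upward) or lower (bars downward) than DMSO in each drug column, for the other NF-kB pathway genes (dark) beside all genes compared (pale). ICG-001 at 96 h in PANC1 has 24.7% of the pathway genes higher, and the bars of C646 extend in both directions.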

How the data were processed

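RNA from HCT116 and PANC1 cells was hybridised to Illumina HumanHT-12 v4 BeadChips. The values deposited are linear signal intensity, which the authors exported from GenomeStudio (version not given in the sources used here) with quantile normalization and no background subtraction, and averaged 2 biological replicates (11 columns) or 3 (1 column). Values of single arrays and detection p-values were not used here, and the table holds no columns of the authors' comparisons. Sorted log2 values differed by 0.0037 to 0.0093 on average between columns of a line and by 0.0628 to 0.0661 between lines, so lines were not compared by signal.

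Signals were converted to log2. The detection limit was the peak of a column's distribution plus 2.33 SD, with the SD mirrored from the values below the peak. A gene was compared when above the limit in at least 1 of 2 columns and counted at 1.5-fold. Fold differences against a column under the limit are bounds, the brighter signal over the limit. The number of arrays limits the precision. Members and lists were chosen with earlier results of these data known. All 10 members were named, and of the other pathway genes (7 lists by role) the 3 largest rises and falls at 96 h, per line and drug, past 1.5-fold in the same direction at both times. The values of 1 gene so chosen are not reported here. For patterns the 5 most similar genes were named.

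Alternatives were thresholds of 1.2 and 2, no filter, a limit at 5 SD, normexp (limma 3.58.1, R 4.3.3, offset 16) with quantile normalization, centred ratios, quantile normalization over 12 columns, and the mean of both DMSO columns as control. The DMSO column of the other time and a limit from the SD of values below the peak about their own mean were added after seeing the data. Python 3.11.15, numpy 2.4.6, pandas 2.3.3, scipy 1.17.1, matplotlib 3.10.9 and biopython 1.88 were used. The counting was tested on simulated data.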

Additional observations from a re-analysis of the deposited data

Results flagged for a closer look

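RELB and NFKB2 went in opposite directions with ICG-001 in the 2 cell lines, both time points below DMSO in HCT116 and both above it in PANC1. The mean log2 ratio in PANC1 minus that in HCT116 was 0.37 for RELB and 0.55 for NFKB2. The PANC1 ratios at 12 h were 0.03 for RELB and 0.06 for NFKB2, which is 0.42 and 0.92 times the SD of ratios at background level, and smaller in size than the differences of -0.15 and -0.09 between the DMSO columns. The difference between the lines was not tested, because each column is a mean with no replicates. Of 12332 genes above the limit in at least 1 column of each comparison, 1214, or 9.84%, were split in the same manner, and so were 2 of the 4 members above the limit. For RELB the direction in HCT116 at 96 h depends on the control, since the ratio of -0.13 became 0.04 against the 12 h DMSO column. With C646, 0 of 4 members were split, beside 10.1% of 12301 genes.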

How the results depend on the processing

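No paired analysis was possible because the replicates are held only as column means, and for the same reason no replicate could be left out. Centring, dropping the filter, a limit at 5 SD and the other SD for the limit kept every count of members and of pathway genes within 1.5 times its value. For PANC1 C646 at 12 h, centring and quantile normalization over all columns left the count of members at 1 but exchanged RELB (lower) for NFKBIA (higher). Counts below are given for members and are in the order HCT116 ICG-001 12 and 96 h, HCT116 C646 12 and 96 h, then PANC1 in the same order. At 1.2-fold they were 3, 3, 2, 1, 1, 5, 5 and 2, and at 2-fold all were 0. After normexp they were 2, 2, 1, 0, 2, 4, 4 and 2. Of all genes compared, 11.2%, 11.8%, 6.73%, 5.18%, 5.11%, 9.49%, 9.66% and 7.04% were then at least 1.5-fold higher. Those lower were 11.9%, 12.4%, 5.65%, 4.23%, 2.16%, 9.09%, 8.30% and 4.87%. At 1.2-fold and after normexp, the member counts included CXCL3 and CCL20 for HCT116 ICG-001 12 h and CXCL3 for PANC1 C646 12 h. After normexp that for PANC1 ICG-001 12 h included CCL20, and that for HCT116 ICG-001 12 h held no other member. Only the brighter column held these above the limit, so they show neither a change nor its absence. Shares of all genes at 1.2-fold and 2-fold were not counted, nor were those with other DMSO controls or any alternative except normexp. Counts of members or of other pathway genes under those settings thus cannot be set beside all genes. With the mean of both DMSO columns as control, the counts of members for PANC1 ICG-001 12 h and PANC1 C646 12 h became 0. With the DMSO column of the other time these were also 0, HCT116 C646 12 h became 1 and PANC1 C646 96 h became 3. Counts of other pathway genes at 1.2-fold were 28, 28, 17, 19, 20, 39, 32 and 21, and at 2-fold 3, 4, 0, 0, 2, 8, 3 and 2. After normexp they moved to 22 and 19 for HCT116 ICG-001, 10 for HCT116 C646 96 h and 15 for PANC1 C646 96 h. With the mean of DMSO columns they moved to 6 for HCT116 C646 96 h, 6 for PANC1 ICG-001 12 h and 8 for PANC1 C646 12 h, and with the other DMSO column to 10, 4 and 5, and 15 for PANC1 C646 96 h. For ICG-001 over C646, the counts of members in HCT116 at 12 and 96 h and PANC1 at 12 and 96 h were 1, 1, 4 and 6 at 1.2-fold, and 0, 0, 0 and 1 at 2-fold. After normexp they were 2, 1, 3 and 5, the first including CXCL3, which only its brighter column held above the limit. Of all genes, 9.24%, 8.58%, 4.65% and 8.70% were then higher and 9.05%, 9.02%, 4.13% and 8.99% lower. With quantile normalization over all columns the count of members in PANC1 at 12 h was 0. For 96 h over 12 h, the HCT116 counts for DMSO, ICG-001 and C646 were 1, 2 and 2 at 1.2-fold, the PANC1 counts 2, 2 and 1, and 0 in PANC1 with ICG-001 and C646 at 2-fold. After normexp they were 1 and 2 for ICG-001 and C646 in HCT116 and 1 and 2 for DMSO and ICG-001 in PANC1. The member counted for ICG-001 in HCT116 was CXCL3, which was above the limit at 12 h only. In these HCT116 comparisons 10.5% and 10.2% of all genes were then higher and 9.21% and 9.20% lower. The PANC1 shares were 3.08% and 6.93% higher and 2.06% and 5.75% lower. The cause was not tested, except that lower thresholds admit more genes and background correction enlarges the ratios of dim genes. No change of 1.5-fold turned its direction under these alternatives. Signal over background limits most chemokines, whose values near the detection limit show neither presence nor absence of a change.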
